A study of Mus musculus with 32 samples.

Results

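The Vmn1r genes encode the vomeronasal type 1 receptors. They were taken as the RefSeq protein-coding genes on the mouse autosomes (assembly GRCm38) whose symbol starts with Vmn1r, which gave 231 of 20665 autosomal protein-coding genes. Of these, 229 lie on sequenced chromosome and could be compared with peaks. Vmn1r186 and Vmn1r187 have RefSeq positions within the first 3 Mb of chromosome 7, where no list has a peak, and are counted as members without a value.

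H3K9me3, the trimethylation of lysine 9 on histone H3 that marks heterochromatin, was mapped by ChIP-seq in male germ cells taken from testes. Stages E13.5 and E16.5 are embryonic days, and P0 and P3 are days after birth. The animals were either Morc1 (+/-), called het here, or Morc1 knockouts, labelled Morc1 (-/-) and called KO. All animals carried the Mvh-Venus transgene, a reporter expressed in germ cells under the promoter of a germ cell gene. The labels give 2 H3K9me3 samples for each genotype and stage, and each of these 8 groups is represented by 1 list of peaks, with chromosome, start and end only. There is no replicate list, so no p-value was computed and every difference is a difference between 2 lists. The 16 samples made with an antibody against histone H3 enter no comparison. A peak list holds no expression value, so neither the loss of Morc1 nor germ cell markers were checked, and fewer cells with the mark cannot be told apart from less of the mark in each cell. The lists hold 50191 to 89020 autosomal peaks and cover 159.7 to 324.0 Mb of the autosomes, with least in the E13.5 het list. Read depth is unknown.

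Vomeronasal type 1 receptors are G protein-coupled receptors of the sensory neurons in the apical layer of the vomeronasal organ, where they detect small pheromone-like molecules and signal through the G protein subunit Gnai2 and the cation channel Trpc2. Their genes stand in tandem clusters, usually with an uninterrupted coding exon, and each neuron expresses a single receptor gene. Silent receptor genes in olfactory neurons are known to lie in H3K9me3 heterochromatin, and Morc1 is a nuclear ATPase of male germ cells that is needed to silence transposons. These statements are background and not results of the lists.

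The promoters of 4 members show what the gene starts look like and recur in the results below. Vmn1r179 was the most covered member of the largest cluster and Vmn1r100 one of its members without a covered base, and Vmn1r41 and Vmn1r58 led the genes with more H3K9me3 in het and in KO at P0. Each sequence is RefSeq sequence of GRCm38.p6 and runs from 250 bases before to 50 after the annotated start, 5' to 3' on the gene's strand. Vmn1r179 is at chr7:23928136-23928435 on the plus strand, Vmn1r100 at chr7:20417692-20417991 on the plus strand, Vmn1r41 at chr6:89740638-89740937 on the plus strand and Vmn1r58 at chr7:5413096-5413395 on the minus strand. Capitals mark TATAAA (the TATA box) or TAATTA (a core bound by homeodomain proteins) on either strand.
Vmn1r179: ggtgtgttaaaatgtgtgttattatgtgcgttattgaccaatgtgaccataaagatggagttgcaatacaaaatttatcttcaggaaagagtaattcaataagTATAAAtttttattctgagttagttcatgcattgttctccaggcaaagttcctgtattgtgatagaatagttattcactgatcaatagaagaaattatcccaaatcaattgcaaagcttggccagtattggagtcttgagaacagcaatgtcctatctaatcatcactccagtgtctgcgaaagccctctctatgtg
Vmn1r100: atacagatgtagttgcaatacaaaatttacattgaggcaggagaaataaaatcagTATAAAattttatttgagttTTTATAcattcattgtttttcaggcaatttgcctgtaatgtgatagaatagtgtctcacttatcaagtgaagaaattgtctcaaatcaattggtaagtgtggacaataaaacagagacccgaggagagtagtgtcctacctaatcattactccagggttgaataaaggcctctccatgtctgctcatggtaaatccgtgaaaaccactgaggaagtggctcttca
Vmn1r41: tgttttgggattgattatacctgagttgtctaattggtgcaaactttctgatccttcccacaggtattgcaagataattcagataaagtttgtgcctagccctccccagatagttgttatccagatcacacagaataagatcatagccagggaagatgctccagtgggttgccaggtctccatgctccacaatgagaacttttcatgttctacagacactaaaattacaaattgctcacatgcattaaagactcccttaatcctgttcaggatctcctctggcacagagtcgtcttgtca
Vmn1r58: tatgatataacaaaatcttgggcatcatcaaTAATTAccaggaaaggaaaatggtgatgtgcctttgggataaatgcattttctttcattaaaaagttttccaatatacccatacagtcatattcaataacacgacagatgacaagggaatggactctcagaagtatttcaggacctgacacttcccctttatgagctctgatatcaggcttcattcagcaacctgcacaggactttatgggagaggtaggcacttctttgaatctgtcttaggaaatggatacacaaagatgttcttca

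The promoter table held 206 of the 231 members, and 181 of them have ATG directly at the annotated start. These gene models therefore mostly begin at the coding sequence, and 201 of the 231 gene lengths are multiples of 3, so most of the lengths are close to coding lengths. Some models are far longer, up to 33695 bp (Vmn1r4), and add much to summed body length. The Vmn1r promoters were AT-rich, with a median GC content of 36% against 53% over the 31396 autosomal promoters in the table. The median number of CG dinucleotides was 1 against 7, and 21.4% of Vmn1r promoters had none against 5.25% of all. TATAAA was present in 87 of 206 Vmn1r promoters (42.2%) and in 13.6% of autosomal promoters of the same length. TAATTA was present in 15 (7.28% against 5.27%). CCCNNGGG, the core of the site for EBF factors, was present in 1 (0.485% against 13.9%). All motifs were searched on both strands, and a match is a description of the letters only.

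H3K9me3 peaks covered a far larger share of Vmn1r gene bodies than of protein-coding gene bodies in general. Peaks covered 23.3% of the 355.3 kb of Vmn1r gene body in the E13.5 het list, and then 32.0% (E16.5), 29.0% (P0) and 23.5% (P3). In the KO lists the values in the same order were 25.1%, 27.8%, 27.1% and 24.8%. Over all autosomal protein-coding genes the share ran from 3.26% to 7.87%. By summed length, the 5 kb flanks on each side were covered less than the bodies in every list, at 19.6% to 25.05%. The widest gap was in the E16.5 het list (24.8% against 32.0%). Long gene models weigh most in such sums. At E13.5 Vmn1r63 (23885 bp) alone held 14.9 of 82.6 kb of covered body in het and 17.7 of 89.2 kb in KO. How far the gap depends on such models was not tested. Averaged over 206 genes, the first 1 kb was not covered more than the 5 kb upstream in every list. It was covered less in the KO lists of E13.5 (20.3% against 20.4%) and E16.5 (21.1% against 21.5%). The same held in the P0 het list (21.4% against 21.6%), and in the other lists the first 1 kb was covered more. The large olfactory families had values in the same range: gene bodies of the Vmn2r genes, the second vomeronasal receptor family, were covered at 21.7% to 32.9%, and those of the Olfr genes, which encode odorant receptors, at 17.7% to 30.4%.

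**Figure D1:**
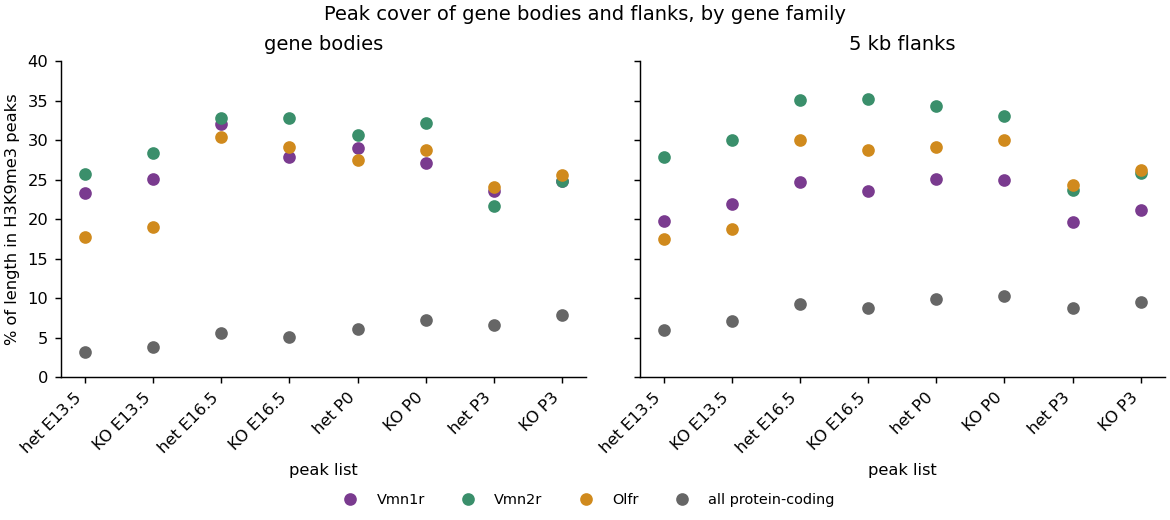
Percentage of gene-body length (left) and of 5 kb flanks (right) in H3K9me3 peaks, in each of the 8 lists on the horizontal axis, with 1 point per gene family and list. The 3 receptor families lie between 17.5% and 35.1% in both panels, and all protein-coding genes between 3.26% and 10.3%.

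The covered length was concentrated in a minority of the genes. A peak touched the bodies of 57 of 229 Vmn1r genes in the het E13.5 list, where 30.9% of all gene bodies were touched, and of 57 in the KO E13.5 list, against 34.4%. At E16.5 the counts were 73 and 66 in het and KO (33.1% and 32.2% of all genes). At P0 they were 66 and 68 (35.2% and 40.3%), and at P3 they were 56 and 65 (39.2% and 41.9%). Vmn1r genes are short, with a median length of 924 bp against 17491 bp for all genes, which offers a peak less length to touch. When a Vmn1r body was touched it was often covered whole: 38 to 51 bodies per list were covered from end to end, and 31 bodies were covered whole in all 8 lists, against 1.01% of all genes. A short body is also easier to cover whole, and Olfr bodies gave a similar share. In the E13.5 het list 148 of 214 touched Olfr bodies were covered whole, against 38 of 57 Vmn1r bodies. The share of Vmn1r bodies touched, 24.5% to 31.9%, was thus below that of all genes in every list. At promoters, which have the same length for all genes, the comparison went the other way. A peak touched 18.4% to 25.2% of Vmn1r promoters, against 4.40% to 6.60% of autosomal promoters.

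Cover around the gene start differed by a few percentage points from that farther away, and not in the same way in every list. Averaged over 206 genes, the first 1 kb of the gene was covered at 18.2% to 25.6%, the 5 kb upstream at 16.7% to 22.8%, the stretch from 1 to 6 kb downstream at 19.97% to 25.7%, and sequence more than 10 kb away at 19.6% to 27.6%. Within lists, the first 1 kb was below the distant sequence in 7 of 8, with the widest gap in the het P0 list (21.4% against 27.6%). In the E16.5 het list it was above, at 25.6% against 23.9%. Single peaks within the clusters reached 93.5 kb.

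The 229 placed genes form clusters that differed from each other far more than the lists did. Runs of Vmn1r genes less than 1 Mb apart were taken as clusters, which gave 14, one of them the unplaced pair, and 8 with at least 5 genes. For each gene a window of the gene body plus 5 kb on each side was used. Peaks touched the window in all 8 lists for 73 genes, where 27.1% of all genes did so, and in no list for 105, against 29.4% of all genes. Only 51 windows were touched in some lists and not in others.

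**Figure D2:**
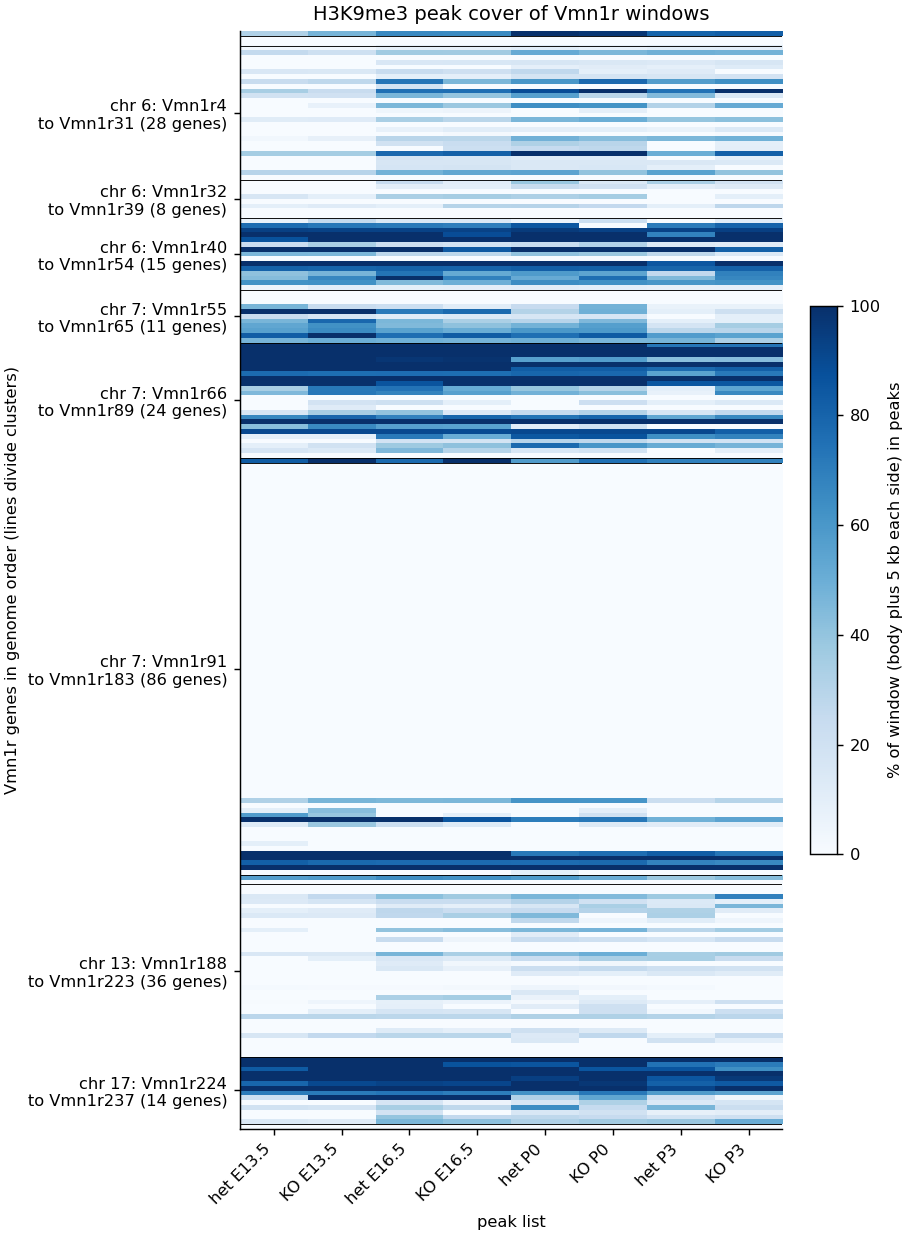
Each row is 1 of the 229 placed Vmn1r genes in genome order, each column 1 peak list, and the colour gives the percentage of the gene's window (body plus 5 kb on each side) in H3K9me3 peaks, with lines between clusters. Most rows keep their shade across the 8 lists, with 73 genes covered in every list and 105 in none, most of the latter in the cluster of 86 genes on chromosome 7.

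On chromosome 17 (20.4 to 21.3 Mb), the cluster of 14 genes from Vmn1r224 to Vmn1r237 was the most covered of the 8 in 7 of the 8 lists. Its windows were covered at 55.7%, 72.5%, 65.8% and 58.3% in het from E13.5 to P3 and at 63.1%, 67.2%, 67.0% and 56.2% in KO. The chromosome 6 cluster from Vmn1r40 to Vmn1r54 was above it in the P3 KO list, at 57.2%, and just below it in the E13.5 het list, at 55.6%. The chromosome 17 cluster divides by subfamily, a grouping of V1R receptors by sequence that is kept in older gene symbols. The genes Vmn1r225 to Vmn1r232 are V1re receptors, and 7 of these 8 had at least 5.95 kb of their window in peaks in every list. The windows of Vmn1r224, which has no subfamily name, and of Vmn1r227 were covered in full in all 8 lists, at 10.9 kb each. The neighbouring Vmn1r233 to Vmn1r237 are V1rf receptors, and Vmn1r233, Vmn1r235 and Vmn1r236 had no covered base at E13.5 in either genotype. Together the V1rf windows were covered at 6.35% in het and 5.69% in KO at E13.5 and at 30.6% and 19.5% at E16.5.

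On chromosome 7 (10.3 to 13.2 Mb), the 24 genes from Vmn1r66 to Vmn1r89 stand among 29 other protein-coding genes, 7 of them zinc finger genes with Zfp symbols. Their windows were covered at 54.8%, 64.9%, 58.8% and 47.9% in het and at 61.4%, 61.5%, 59.4% and 54.3% in KO. The first 6 genes, Vmn1r66 to Vmn1r71, all had their bodies covered whole in all 8 lists, and 64.4% to 84.4% of the 6 genes' whole span lay in peaks. The window of Vmn1r67 was covered in full in every list (10.999 kb). The last 5 genes, Vmn1r85 to Vmn1r89, had a span covered at only 9.94% in het at E13.5 and 36.0% at P0. Of these, Vmn1r85 and Vmn1r89 are known to respond to sulfated steroids. Vmn1r85 (V1rj3) had 1.00 kb covered in both E13.5 lists, and in het and KO it then had 7.82 and 5.52 kb (E16.5), 9.24 and 9.43 kb (P0) and 6.93 and 7.39 kb (P3), whereas its relative Vmn1r89 (V1rj2) had none in any list. Both were named for their known ligands, after their values had been seen.

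On chromosome 6 (89.7 to 90.3 Mb), the 15 genes from Vmn1r40 to Vmn1r54 are all V1ra or V1rb receptors. Their windows were covered at 55.6%, 60.9%, 59.7% and 49.2% in het and at 60.7%, 55.2%, 54.6% and 57.2% in KO. Vmn1r49 (V1rb2), known as a receptor for 2-heptanone and named for that reason, had its whole 10.9 kb window covered in 7 lists and 9.34 kb in the P3 het list. Vmn1r44 was the most covered member, with 10.5 kb in the E13.5 het list and 12.1 kb in each of the other 7. Vmn1r47 and Vmn1r48 carry identical 300 bp promoters, yet Vmn1r47 had 1.51 to 5.04 kb of its window covered in every list and Vmn1r48 had none.

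The other clusters were covered more sparsely. The 11 genes from Vmn1r55 to Vmn1r65 on chromosome 7 (5.15 to 6.01 Mb), mostly V1rd receptors, were covered at 43.7%, 37.1%, 34.8% and 18.0% in het and at 47.6%, 34.9%, 40.4% and 19.7% in KO. The 28 genes from Vmn1r4 to Vmn1r31 and the 8 from Vmn1r32 to Vmn1r39 on chromosome 6, mostly V1rc receptors, were covered at no more than 27.8% and 17.2% in any list. The 36 genes from Vmn1r188 to Vmn1r223 on chromosome 13, mostly V1rh and V1ri receptors, reached 13.7%. Of the 12 genes there without a covered base in any list, 9 are V1rh or V1ri receptors by their older names, Vmn1r-ps103 among them. Of all 36 genes, 21 are V1rh and 9 are V1ri receptors. Vmn1r191, a V1rh receptor, was the most covered of the cluster, with 1.60 kb in the het and 2.84 kb in the KO list at E13.5 and 4.02 to 7.49 kb in the 6 later lists. Among genes outside these clusters, Vmn1r90, alone on its part of chromosome 7, had its body covered whole in all 8 lists. The pair Vmn1r2 and Vmn1r3 on chromosome 4 and the single Vmn1r238 on chromosome 18 had no covered base. They lie at 3.12 to 3.19 Mb, close to the first 3 Mb of a chromosome, where no list has a peak.

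The largest cluster was almost empty of peaks over most of its length. It holds 86 genes from Vmn1r91 to Vmn1r183 on chromosome 7 (20.1 to 24.1 Mb), and its windows were covered at 5.08% to 7.62%. The first 70 genes in genome order, Vmn1r91 to Vmn1r166, had no covered base in the window in any list. Their 3.40 Mb span (chr7:20101158-23504641) held 11 to 18 peaks per list, which covered 2.02% to 4.27% of it. Of the last 16 genes, which begin with Vmn1r167, 12 had covered windows, and 29.0% to 45.1% of that 0.551 Mb lay in peaks. Vmn1r179, in this last stretch, had its whole 10.97 kb window covered in all 8 lists, and Vmn1r178, Vmn1r180 and Vmn1r181 had their bodies covered whole in all of them. The cluster was divided at this point after its values had been seen.

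Most uncovered genes of this cluster have a promoter nearly identical to that of another Vmn1r gene. Only the 300 bp promoters were compared, each with its most similar other promoter. The promoter of Vmn1r100 printed above is 99.3% identical to that of another Vmn1r gene. In the uncovered stretch 67 of the 68 promoters available, all but that of Vmn1r148 (65.3%), are at least 95% identical to another. In the covered last stretch 6 of 15 are, and the promoter of Vmn1r179 is at most 66.7% identical to any other. Over the whole family, 83 genes have a promoter at least 95% identical to that of another member. No list touched the window of 78 of these 83 genes, and 0.437% to 1.22% of their windows was covered. The 123 genes with less similar promoters had 31.1% to 39.9% of their windows covered, with 63 touched in all 8 lists and 19 in none. Across 206 genes, the identity to the most similar promoter and the mean covered percentage of the window had a Spearman correlation of -0.711, given as a description, since genes of a cluster are neighbours and share ancestry. Within the cluster of 86 genes it was -0.658 (83 genes). In 4 other clusters it was weaker, at -0.288 (24 genes from Vmn1r4), -0.236 (14 from Vmn1r40), -0.142 (21 from Vmn1r66) and -0.293 (33 on chromosome 13), and on chromosome 17 it was 0.801 (12 genes). Reads from identical copies cannot be placed uniquely, and how the authors treated such reads is not given in the sources used here. Its part in the missing peaks was not tested, so the values of members with near-identical promoters are uncertain.

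**Figure D3:**
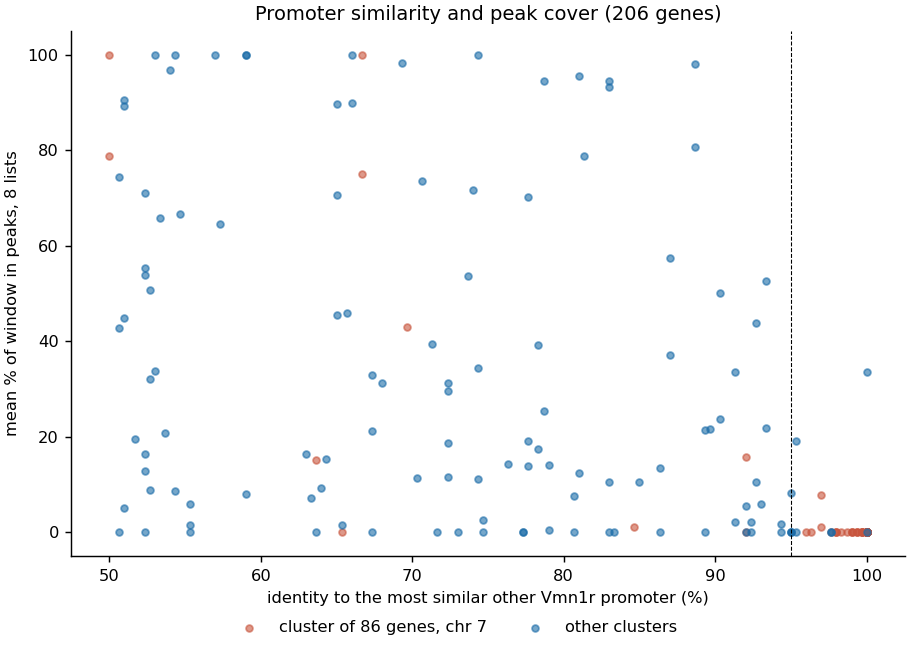
Each point is 1 of 206 Vmn1r genes: the horizontal axis gives the percentage identity of its promoter to the most similar other Vmn1r promoter, the vertical axis the mean percentage of its window in peaks over the 8 lists, and the dashed line stands at 95%. To the right of the line 78 of 83 genes lie at 0%, and to the left the points spread from 0% to 100%.

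Between E13.5 and E16.5 the ratio of covered lengths was highest in 3 sparsely covered clusters, those of the V1rc genes on chromosome 6 and that on chromosome 13. It was lower, or below 1, in the other 5. Windows of the 28 genes on chromosome 6 from Vmn1r4 went from 8.12% to 22.6% in het and from 8.03% to 21.7% in KO. The chromosome 13 cluster went from 3.40% to 11.7% in het and from 4.52% to 9.95% in KO. The 8 genes from Vmn1r32 went from 2.88% to 10.5% in het and from 2.44% to 10.5% in KO. The covered length of these 3 clusters at E16.5 in het was 2.78, 3.46 and 3.66 times the E13.5 length, and in KO it was 2.71, 2.202 and 4.30 times. The autosomes as a whole went up by 1.83 times in het and 1.48 times in KO, and against that the ratios were 1.52, 1.89 and 1.998 in het and 1.83, 1.49 and 2.91 in KO. In the cluster from Vmn1r55 to Vmn1r65 the ratio was 0.849 in het and 0.732 in KO, and in the cluster of 86 genes it was 0.909 and 0.818. The 3 most covered clusters lay between these and the first group. The ratio was 1.30 in het and 1.06 in KO on chromosome 17, 1.183 and 1.002 in the cluster from Vmn1r66, and 1.10 and 0.910 in the cluster from Vmn1r40. In kb the order differed in het. The gain there was 54.2 kb in the cluster from Vmn1r4, 32.7 kb on chromosome 13 and 7.20 kb in the cluster from Vmn1r32. It was 26.7 kb in the cluster from Vmn1r66, 26.0 kb on chromosome 17 and 10.1 kb in the cluster from Vmn1r40. In KO the first 3 gained 51.3, 21.3 and 7.57 kb, and the last 3 changed by 0.373, 6.4 and -10.3 kb.

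**Figure D4:**
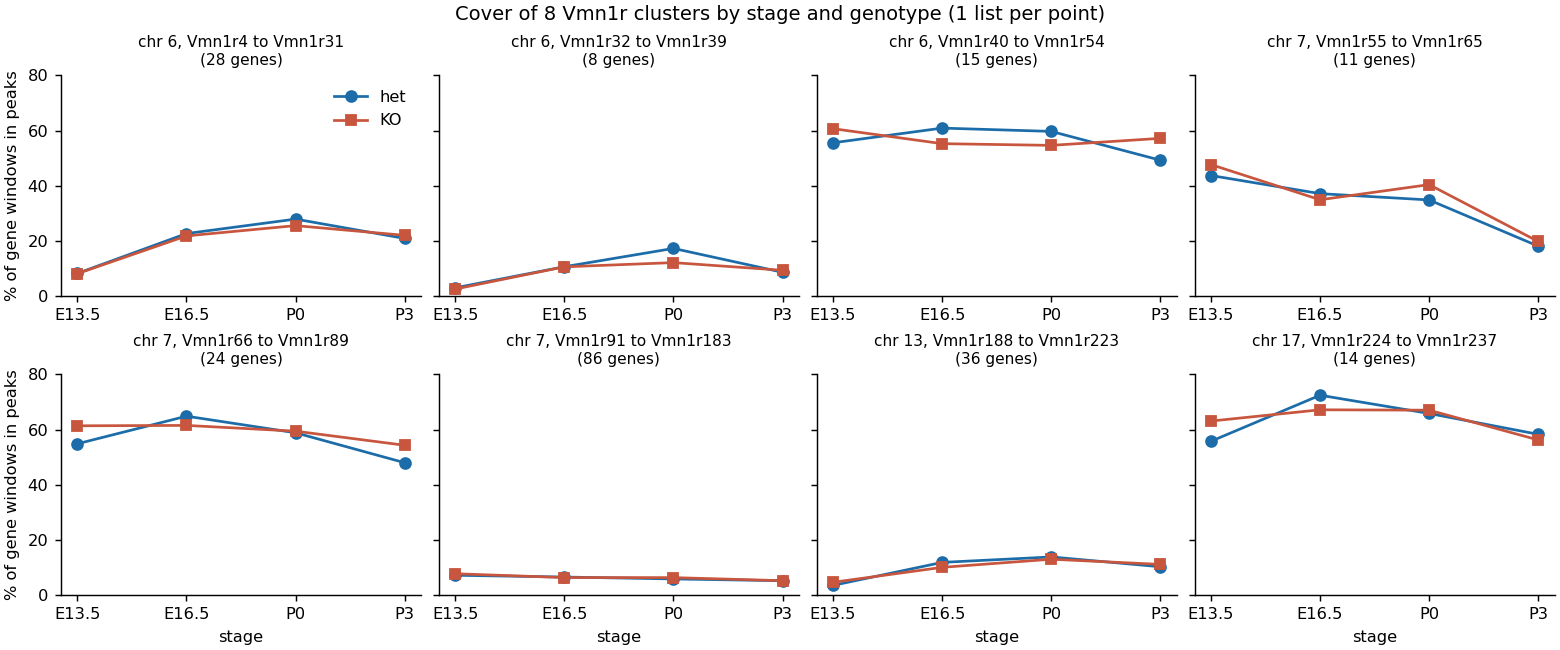
Percentage of the gene windows in peaks for the 8 clusters with at least 5 genes, at the 4 stages on the horizontal axis, with 1 point per list (circles for het, squares for KO). The V1rc clusters on chromosome 6 and the cluster on chromosome 13 are higher at the 3 later stages than at E13.5 in both genotypes, and the cluster from Vmn1r55 to Vmn1r65 is lowest at P3.

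For the family as a whole, window length in peaks was 535.2 kb (het) and 592.2 kb (KO) to begin with, and 680.02 kb and 638.9 kb at E16.5. That is a ratio of 1.27 in het and 1.08 in KO, but 0.693 and 0.730 relative to the autosomal total. A window counted as longer in a list when it held at least 1.5 times and at least 1 kb more covered length. In het 54 windows were longer at E16.5 (24.5% of all genes) and 6 were shorter (8.39% of all genes), and in KO the counts were 33 (18.5%) and 12 (13.4%). The clusters on chromosome 6 from Vmn1r4 and on chromosome 13 held 33 of the 54 in het, and 23 of the 33 in KO. Of all Vmn1r windows, 12 had no covered base in either genotype at E13.5 and were covered in all 6 later lists (3.29% of all genes), and 6 of these are in the V1rc clusters of chromosome 6. The largest gain in KO was that of Vmn1r13, from 2.64 to 8.26 kb, with 3.75 and 8.19 kb in the het lists. The largest loss in het was that of Vmn1r170, which had 6.30 kb (het) and 4.30 kb (KO) at the first stage and at most 2.12 kb in any later list.

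From E16.5 to P0 the family total hardly moved, at 676.02 kb in the het and 666.5 kb in the KO list of P0 (ratios of 0.994 and 1.04, and 0.942 and 0.865 relative to the autosomes). In het 18 windows were longer at P0 (16.2% of all genes) and 17 shorter (10.8%). In KO the counts were 22 (26.3%) and 10 (5.89%). Vmn1r87 had the largest gain in het, from 4.05 to 8.42 kb, and went from 4.48 to 6.56 kb in KO. Vmn1r1, a gene alone on chromosome 1, went up at both steps from E13.5 to P0, with 3.47, 7.18 and 10.9 kb in het and 5.14, 7.14 and 10.6 kb in KO over the first 3 stages. It was named after its values had been seen.

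From P0 to P3 covered length was lower, with 532.4 kb left in het and 573.03 kb in KO. The ratios were 0.788 and 0.860, and 0.875 and 0.917 relative to the autosomes. The other receptor families were lower at P3 as well, with ratios in het and KO of 0.703 and 0.776 (Vmn2r) and 0.842 and 0.877 (Olfr). In het 2 windows were longer at P3 (16.7% of all genes) and 36 shorter (9.78%), and in KO 5 were longer (14.8%) and 28 shorter (10.7%). The cluster from Vmn1r55 to Vmn1r65 went to 0.518 of its P0 length in het and 0.488 in KO. Within it Vmn1r63, whose gene model is long, had the largest loss in both genotypes. Its window held 17.0 to 22.0 kb of peaks in each of the 6 lists before P3, and 9.53 kb (het) and 9.85 kb (KO) at P3, so the P3 lists stood apart from the others.

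Het and KO differed little in the family total, and the direction changed with the stage. Covered window length in KO was 1.11 times that in het in the E13.5 lists, and the ratio was 0.940 (E16.5), 0.986 (P0) and 1.08 (P3). The autosomal totals had ratios of 1.14, 0.918, 1.05 and 1.09, and relative to these the Vmn1r ratios were 0.972, 1.02, 0.940 and 0.985, on the other side of 1 at every stage but P0. By gene, 3 windows were longer in het at E13.5 (3.83% of all genes) and 18 in KO (13.4%). At E16.5, 13 were longer in het (5.2%) and 3 in KO (2.79%). At P0, 13 were longer in het (4.82%) and 15 in KO (16.52%). At P3, 10 were longer in het (6%) and 21 in KO (14.3%). As shares of the 229 genes, the KO counts are 7.86%, 1.31%, 6.55% and 9.17%, each below the share over all genes, and the het counts are 1.31%, 5.68%, 5.68% and 4.37%. The 229 include 105 genes without a covered base in any list, which this rule cannot call, where 29.4% of all genes have none. Vmn1r genes are also short (median 924 bp against 17491 bp), while the rule asks for 1 kb in every window. How far these limits lower the shares was not tested. The lean to KO at P0 depends on the rule: het was called more often with the longer 50% of peaks (11 against 10), equal peak numbers (14 against 12), 10 kb flanks (16 against 10), at least 2 times (10 against 8) and gene bodies alone (3 against 1). In gene bodies alone the lean at E13.5 also turned, with 2 genes called for het and 1 for KO. When a difference of any amount was counted, in het 23, 61, 49 and 33 Vmn1r windows were longer from the first stage to the last (13%, 29%, 14% and 17.7% of all genes), and in KO 47, 33, 55 and 65 were (32.9%, 15.7%, 41.2% and 38.4%).

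**Figure D5:**
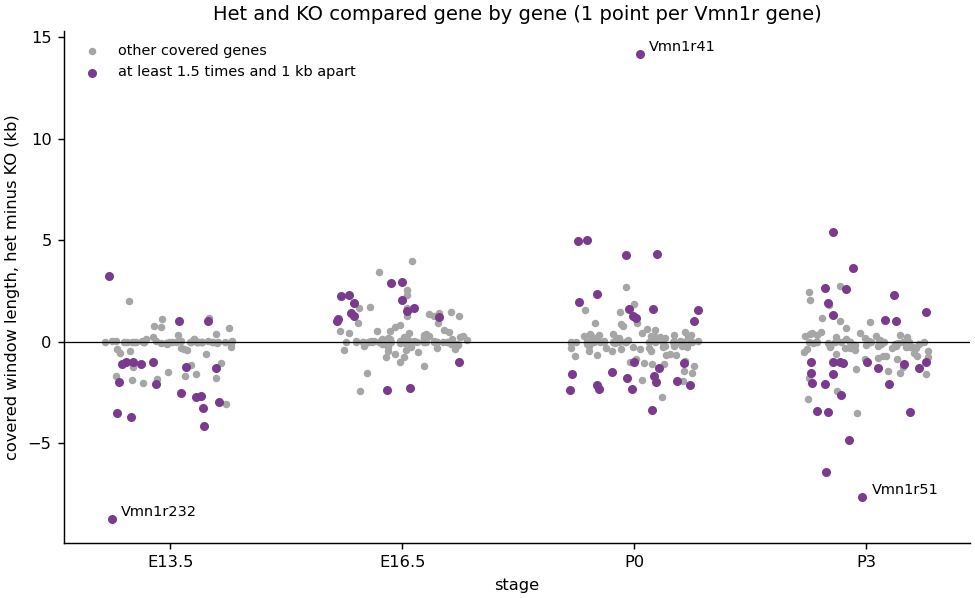
Each point is 1 Vmn1r gene with covered sequence in either genotype, the vertical axis gives het minus KO in kb of covered window at each of the 4 stages, and purple points differ by at least 1.5 times and 1 kb. Most points lie near 0, and Vmn1r41 at P0 (14.1 kb longer in het) lies farthest from it.

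The largest difference between genotypes was at Vmn1r41, a V1ra or V1rb receptor gene on chromosome 6. Its window held 14.1 kb of peaks in het at P0 and none in KO at P0. In the other 6 lists it held between 11.5 and 13.3 kb, both genotypes included, so only the P0 KO list stood apart. That list has no peak from chr6:89723130-89762449, a gap of 39.3 kb. The neighbouring Vmn1r40 was longer in KO at 3 stages, with 0.900, 0.865 and 0 kb in het and 3.55, 2.99 and 1.55 kb in KO (E13.5, P0, P3), and both genotypes had 1.96 kb at E16.5. Vmn1r51, in the same cluster, held 4.69 kb in the P3 het list against 12.4 kb in the KO list. In the 6 earlier lists it held 7.44 to 13.3 kb, so the P3 het list was the lowest.

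On chromosome 7, Vmn1r75 and Vmn1r76, neighbouring V1rg receptors, were lower in het at E13.5 and P3. In het and KO, Vmn1r75 held 3.72 and 7.87 kb (E13.5), 8.10 and 5.57 kb (E16.5), 4.28 and 3.36 kb (P0) and 1.00 and 5.85 kb (P3). Vmn1r76 held 4.97 and 7.96 kb, 7.43 and 6.17 kb, 5.30 and 4.66 kb, and 0.784 and 7.22 kb in the same order. At E16.5 and P0 the het values of both were higher. Vmn1r58, a V1rd receptor, held 6.66 and 3.42 kb in het and KO (E13.5), 3.08 and 1.66 kb (E16.5), 3.48 and 6.83 kb (P0) and 1.00 kb in both (P3), so its direction turned between E16.5 and P0. Its own promoter, printed above, was touched in no list. Vmn1r80, another V1rg receptor, held 1.77 and 3.83 kb (E13.5) and 4.36 and 1.48 kb (E16.5). Vmn1r78 turned at each of these stages, with 0 and 2.002 kb in het and KO (E13.5), 2.26 and 1.00 kb (E16.5) and 0 and 2.34 kb (P0). Vmn1r169 had more in KO at E13.5, with 4.73 kb against 1.00 kb in het, and its promoter is 97.0% identical to that of Vmn1r176, so its value is uncertain.

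On chromosome 17, Vmn1r232, the V1re gene next to the V1rf genes, had 2.41 kb covered in the E13.5 het list and 11.2 kb in the KO list, which is its whole window, as in both lists of E16.5. It had 3.57 and 5.94 kb in het and KO at P0 and 2.36 and 0.431 kb at P3. The peak that reaches into this window from lower coordinates ended at chr17:20910451 in het and reached chr17:20920329 in KO at E13.5, and in both genotypes it was longest at E16.5. Vmn1r234, a V1rf receptor gene, was longer in het at all 4 stages, with 2.09 and 1.93 kb (E13.5), 3.78 and 2.98 kb (E16.5), 7.05 and 2.72 kb (P0) and 5.11 and 2.47 kb (P3) in het and KO.

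After birth a few genes differed in the same direction in both pairs of lists. At both P0 and P3, 6 windows were longer in het (Vmn1r9, Vmn1r14, Vmn1r32, Vmn1r195, Vmn1r220 and Vmn1r234), where 1.99% of all genes were. Another 6 were longer in KO (Vmn1r40, Vmn1r59, Vmn1r193, Vmn1r212, Vmn1r214 and Vmn1r219), where 5.71% were. No window was longer in het at P0 and in KO at P3 (0.302% of all genes), and 1, that of Vmn1r232, went the other way (0.739%). Vmn1r195, a V1ri receptor gene on chromosome 13, held 1.56 and 1.51 kb in het and KO (E13.5), 2.96 and 3.73 kb (E16.5), 4.94 kb and none (P0) and 3.64 kb and none (P3). Its 2 postnatal KO lists were the only lists without a peak, in gaps of 27.9 kb and 26.4 kb. Vmn1r14, in the cluster of V1rc genes on chromosome 6, held 3.47 and 3.59 kb (E13.5), 8.45 and 7.202 kb (E16.5), 10.2 and 5.198 kb (P0) and 8.04 and 2.61 kb (P3). Vmn1r32 held none in either genotype in the first lists, and then 4.12 and 1.80 kb (E16.5), 6.73 and 2.49 kb (P0) and 5.91 and 3.30 kb (P3). In the KO direction, Vmn1r193 held 1.77 and 3.71 kb in het and KO at P0 and 1.59 and 5.05 kb at P3. The members of these lists other than Vmn1r9, Vmn1r14, Vmn1r32, Vmn1r195, Vmn1r219 and Vmn1r234 were named after their values had been seen.

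Few genes kept 1 direction through all 4 stages at any size of difference. Longer in het at every stage were 4 Vmn1r windows (0.987% of all genes), those of Vmn1r5, Vmn1r234, Vmn1r9 and Vmn1r47, and their smallest differences over the stages were 0.179, 0.155, 0.047 and 0.020 kb. Longer in KO at every stage were 2 (4.28% of all genes), those of Vmn1r81 and Vmn1r219. Vmn1r81, a V1rg receptor gene, held 7.21 and 8.69 kb in het and KO (E13.5), 7.44 and 8.65 kb (E16.5), 8.05 and 8.68 kb (P0) and 5.77 and 7.22 kb (P3).

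Genes of vomeronasal signalling and neuron identity, a list of 18 genes, mostly had smaller shares of their windows in peaks than the Vmn1r family (20.1% to 25.7%). Windows of all protein-coding genes together were covered at 3.60% to 8.08%, so small shares are usual. Gnai2, the G protein subunit used by these receptors, had no covered base in its window in any list, nor had Omp, the marker of mature olfactory neurons, or Rtp1, a receptor transport protein. Trpc2, the channel at the end of the pathway, held 1.00 to 2.14 kb in a window of 23.7 kb. The highest share was at Emx2, a homeobox gene, with 30.9% of its window (5.15 kb) in the E13.5 het list, 39.0% (6.51 kb) in the KO list, and no covered base later. In all, 8 of the 18 were covered in all 8 lists, where 27.1% of all genes were. By the rule of 1.5 times and 1 kb, 7, 2, 3 and 3 of them were longer in KO from the first stage to the last (13.4%, 2.79%, 16.52% and 14.3% of all genes), and 0, 1, 0 and 0 were longer in het (3.83%, 5.2%, 4.82% and 6%). Nrp2, an axon guidance receptor of the apical neurons, held 3.003 and 4.61 kb in het and KO (E13.5), 2.56 and 2.84 kb (E16.5), 4.58 and 7.31 kb (P0) and 2.53 and 6.41 kb (P3). Meis2, a transcription factor, held 3.21 and 3.54 kb (E13.5), none and 3.003 kb (E16.5), 2.15 and 7.98 kb (P0) and none and 3.81 kb (P3). The KO lists were the longer of each pair for both genes. Kirrel3, a cell adhesion gene, held more in het before birth, with 4.26 and 3.52 kb (E13.5) and 14.4 and 8.56 kb (E16.5) in het and KO, and more in KO after it, with 21.1 and 29.9 kb (P0) and 27.3 and 38.8 kb (P3).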

How the data were processed

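H3K9me3 was profiled by ChIP-seq in male germ cells of 2 genotypes at 4 stages. The authors deposited 8 peak lists, whose values are peak positions in base pairs (chromosome, start, end); no height, score or p-value is given. The build is mm10 (GRCm38), and bcl2fastq 2.20, cutadapt 1.18, Bowtie2 2.3.4.1, deepTools 3.5.0 and HOMER 4.10 are named, with no role or order, per the submitters' processing notes. The peak calling settings, the use of the H3 samples and the pooling of samples are not given in the sources used here. Depth is unknown, so no precision can be attached to a single peak.

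Gene positions and promoters came from RefSeq tables of GRCm38. Covered base pairs per gene body, flank and window were computed with Python 3.11.15, numpy 2.4.6 and pandas 2.3.3, on code tested on simulated intervals; family totals count each base once. Genes ending within the first 3 Mb of a chromosome were left out of coverage (105 of 20665). Promoter identity is 100% minus the edit distance over the length. Stage and genotype of a list come from its name, matched to the labels. Subfamilies come from older symbols in RefSeq (128 genes have one).

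Genes were named by a rule: the most and least covered of each cluster of at least 5 genes, up to 3 per stage and direction with the largest called difference between genotypes, the largest gain and loss of each stage step and genotype, up to 5 per direction with 1 direction at all stages, and up to 3 covered in no list or in full in every list. Some genes that meet the rule are not described, such as Vmn1r25 and Vmn1r37, longer in KO at E16.5. Others are Vmn1r11 and Vmn1r198, longer in het at E16.5 and E13.5. The members and lists were chosen with earlier results of these data known; subfamilies, the division of the largest cluster, the threshold of promoter identity and the peaks described at single genes were chosen after seeing the values, as were genes named outside the rule. The alternatives changed the peaks used, the window, the call rule, the scaling and the genes.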

Additional observations from a re-analysis of the deposited data

Results flagged for a closer look

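The ratio of covered Vmn1r window length in KO to that in het lay on different sides of 1 at different stages. It was 1.11 at E13.5 and 1.08 at P3, and 0.940 at E16.5 and 0.986 at P0. From E16.5 to P0 the ratio was 1.04 in KO and 0.994 in het, on different sides of 1 in the genotypes. With 1 list per group these differences between stages and between genotypes were not tested.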

How the results depend on the processing

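Of 151 alternative values of 43 results, 115 stayed on the same side or within counting error. Relative to the covered length on all autosomes, the ratio of KO to het crossed 1 at E13.5 (0.972), E16.5 (1.02) and P3 (0.985), the ratio of E16.5 to E13.5 in het (0.693) and KO (0.730), and the ratio of P0 to E16.5 in KO (0.865). The ratio of P0 to E16.5 in het was 1.02 with the longer 50% of peaks, 1.06 with 10 kb flanks and 1.00 without the largest cluster, and in KO it was 0.972 in gene bodies alone. The lower length at P3 than at P0 kept its direction under every alternative run. Leaving out genes with near-identical promoters, an alternative chosen after seeing the data, kept all 10 ratios on the same side of 1. The 83 genes left out had only 0.437% to 1.22% of their windows covered, so their removal could hardly move a ratio. It therefore cannot show whether the placement of reads matters. Counts of called genes depended on the rule. In gene bodies alone, het was called for 2 (E13.5), 3 (E16.5), 3 (P0) and 1 (P3) genes, and KO for 1 (E13.5), 0 (E16.5), 1 (P0) and 1 (P3). Counting any difference gave 23, 61, 49 and 33 genes for het and 47, 33, 55 and 65 for KO from E13.5 to P3. Asking for at least 2 times gave 8 for het and 3 for KO at E16.5, and 10 for het and 8 for KO at P0. For het, the longer 50% of peaks gave 1 and equal peak numbers 6 at E13.5, and 10 kb flanks gave 20 at P3. Gene bodies with at least 50% of their length in peaks numbered 43 (E13.5), 51 (P0) and 44 (P3) in het and 50 (E16.5), 53 (P0) and 48 (P3) in KO. A gap of 0.5 Mb between clusters gave 16 clusters in place of 14. The alternative that leaves out genes with near-identical proteins was not run, since no protein sequences were used. No paired analysis was possible because the lists carry no replicate number and each group has 1 list.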
